A study of Mus musculus with 8 samples.

Results

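The axon guidance ligand and receptor genes are the semaphorins of classes 3 to 7, their plexin and neuropilin receptors, the ephrins and Eph receptors, the Slits and Robos, and the Unc5 netrin receptors. They were chosen by gene symbol (Sema3 to Sema7, Plxn, Nrp, Efna, Efnb, Epha, Ephb, Slit, Robo and Unc5) among the autosomal protein-coding genes of the GENCODE M1 annotation of the mouse genome build mm9. This gave 61 of 21281 genes, 30 for ligands and 31 for receptors. The X-linked Plxna3, Plxnb3 and Efnb1 fall outside the autosomes and were left out. DSB-seq maps DNA double-strand breaks (DSBs) by adding biotinylated nucleotides to broken ends in fixed nuclei, capturing the labeled fragments and sequencing them. It was done on mouse embryonic stem (ES) cells grown in serum with LIF, of 2 genotypes with 2 biological replicates each. Chd1 KO cells (Chd1delta/delta) are an established line with both alleles of Chd1, which encodes a chromatin remodeler, deleted, and control cells (Chd1fl/delta, called Chd1 WT in the sample titles) carry 1 floxed and 1 deleted allele, so a deleted allele is common to both genotypes.

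The replicates were combined before peaks were called, which leaves 1 list per genotype, 5671 peaks in Chd1 KO and 54 in control. No value below therefore has a replicate error, no difference between the genotypes was tested, and the intervals given are 95% intervals for counting error only. The lowest number of extended reads at a peak summit was 13 in Chd1 KO and 17 in control, and the lowest local background was 3.18 and 2.95 reads, a control to Chd1 KO ratio of 0.927. The lists hold no expression values, so neither the loss of Chd1 nor the cell type could be checked from them.

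Guidance ligands and receptors steer growing axons and migrating cells by attraction or repulsion. Semaphorins act through plexins, the secreted class 3 members mostly together with a neuropilin, ephrins bind Eph receptor tyrosine kinases on a neighboring cell, Slits bind Robos, and Unc5 proteins mediate repulsion from netrins. These genes are best known from the developing nervous system and vasculature, and several of them are very long.

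A DSB peak summit lay within 1 kb of a transcription start site (TSS) for 20 of the 61 genes in Chd1 KO ES cells (32.8%, Wilson interval 22.3% to 45.3%). The share over all 21281 genes was 16.4%. In control cells 0 of the 61 genes had such a summit, which allows a share of up to 4.92%, and the share over all genes was 0.00%. The nearest control summit to the TSS of any of the 61 genes was 727 kb away, at Plxna4. A summit in a gene body, over 1 kb from each TSS, was present in 8 genes in Chd1 KO and in 0 in control. Either kind of summit was present in 24 genes, both kinds in 4 genes (Slit3, Sema4d, Unc5b and Plxnd1), and neither in 37. The shares of all genes with either kind, both kinds or neither were not computed, so these counts are description only.

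For Slit3, Sema4f and Sema4g, which are among the 5 genes whose TSS peaks have the highest fold enrichment, mm9 sequence is given around the longest run of G and C in the peak. Fold enrichment is the authors' ratio of reads at the summit to local background in the same combined library. The sequences show what the base composition under these peaks looks like. Each reads 5′ to 3′ on the strand of the gene, with the run, an unbroken stretch without A or T, in capitals. For Slit3 and Sema4g only 30 bases are printed because the run lies in the 5′ UTR.
Slit3 (chr11:34934838-34934867, plus strand): gctGCCGCCGCCGCCCGGCGCGCCCCGCtc
Sema4f (chr6:82889527-82889646, minus strand): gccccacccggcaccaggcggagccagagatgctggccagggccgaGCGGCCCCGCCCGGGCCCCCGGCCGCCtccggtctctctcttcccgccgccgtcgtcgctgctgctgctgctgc
Sema4g (chr19:45063706-45063735, plus strand): gcccgcctCCGGCCCCCGCCCCacccccgg
The run of Slit3 was 25 bp long with 7 CpG dinucleotides, that of Sema4f 27 bp with 5, and that of Sema4g 14 bp with 2. The summits of these 3 peaks lay between 12 bp (Sema4f) and 85 bp (Slit3) from the centre of the run.

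Among the ligands, 8 of 30 genes had a TSS summit in Chd1 KO (26.7%, interval 14.2% to 44.4%). The semaphorins contributed 5 of 20. None of the 7 genes for secreted class 3 semaphorins had one (interval 0% to 35.4%), and 3 of the 6 class 4 genes, all encoding transmembrane proteins, did (interval 18.8% to 81.2%). These intervals overlap, and the GC content within 1 kb of the outermost TSS had a median of 51.6% for class 3 and 55.9% for class 4. By the shares of all genes of like GC content, 0.942 class 3 and 1.67 class 4 genes would have a summit.

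Sema4d, whose product binds plexin B1, had its summit 141 bp downstream of the nearest TSS in a 5′ UTR (chr13:51888709-51889039), with 21 reads and 4.21-fold enrichment. Sema4f had 23 reads and 5.26-fold enrichment, 164 bp downstream in a coding exon (chr6:82889472-82889765). Sema4g had 25 reads and 4.98-fold enrichment, 151 bp downstream in the 5′ UTR (chr19:45063581-45063850). These 3 class 4 summits thus lay within a narrow stretch downstream of the nearest TSS. This was not particular to class 4, since the summits of Plxnd1 (134 bp), Sema7a (176 bp) and Epha8 (181 bp) lay beside it. From its outermost TSS the Sema4d summit lay 215 bp downstream. Sema6b, a transmembrane class 6 semaphorin, had 24 reads and 3.86-fold enrichment in an intron, 265 bp downstream (chr17:56279401-56279676). Sema7a, the GPI-anchored semaphorin, had 20 reads and 3.67-fold enrichment in a coding exon, 176 bp downstream (chr9:57787978-57788266), the lowest fold enrichment among the 20 TSS peaks.

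Of the ephrin genes, 1 of 5 for GPI-anchored A ephrins and 1 of 2 for transmembrane B ephrins had a TSS summit. The intervals were 3.62% to 62.4% and 9.45% to 90.5%. Efna2 had 21 reads and 3.77-fold enrichment, 45 bp upstream of the TSS (chr10:79642080-79642541). Efnb2, which encodes ephrin B2, known from arterial endothelium, had 19 reads and 4.24-fold enrichment, 28 bp downstream of the nearest TSS (chr8:8660558-8660973). Slit3 was the 1 of 3 Slit genes with a TSS summit, with 30 reads and 6.33-fold enrichment in its 5′ UTR, 212 bp downstream (chr11:34934804-34935107). Slit1 and Slit2 had none, and the interval for 1 of 3 was 6.15% to 79.2%.

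Among the receptors, 12 of 31 genes had a TSS summit (38.7%, interval 23.7% to 56.2%), an interval that overlaps that of the ligands. Plexins, the signaling receptors of semaphorins, contributed 4 of 7, and the neuropilin co-receptors 0 of 2. The intervals, 25.0% to 84.2% and 0% to 65.8%, overlap. Median GC content within 1 kb of the outermost TSS was 64.6% for the plexin genes and 57.4% for the neuropilin genes. The peak at Plxna1 was the widest of the 20, at 758 bp (chr6:89312114-89312871), and had the most reads, 39, with 6.33-fold enrichment 8 bp upstream of the TSS. It stood at the 98.8th percentile of all Chd1 KO peaks by reads and the 93.8th by fold enrichment. Plxnb1, the gene for a receptor of Sema4d, had 27 reads and 4.84-fold enrichment, 22 bp upstream (chr9:108997759-108998002). Plxnc1, encoding the receptor of Sema7a, had 18 reads and 3.83-fold enrichment in a coding exon, 35 bp downstream (chr10:94407055-94407339). Plxnd1 had 24 reads and 4.73-fold enrichment in the 5′ UTR, 134 bp downstream (chr6:115944721-115945057).

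For the Eph receptors the count was 2 of 9 for EphA genes and 3 of 5 for EphB genes. The intervals, 6.32% to 54.7% and 23.1% to 88.2%, overlap, and the share over all genes was 16.4%. Median GC content within 1 kb of the outermost TSS was 57.0% and 60.6%, and no difference between families was tested. Epha7 had 16 reads and 3.76-fold enrichment in an intron 439 bp downstream of the nearest TSS (chr4:28740695-28741191), the farthest of the 20. Epha8 had 31 reads and 5.14-fold enrichment, also in an intron, 181 bp downstream (chr4:136512430-136512994). From the outermost TSS the EphB summits lay 192 bp (Ephb2), 314 bp (Ephb4) and 368 bp (Ephb3) downstream. Measured to the nearest annotated TSS, as given next, they were closer for Ephb2 and Ephb4 than for Ephb3. Ephb2 had 24 reads and 4.75-fold enrichment in a coding exon 47 bp downstream (chr4:136391537-136391894). Ephb4, the gene for the main receptor of ephrin B2, had 21 reads and 4.30-fold enrichment, 7 bp upstream in the 5′ UTR of a transcript with an earlier start (chr5:137791449-137791799). Ephb3 had 20 reads and 4.79-fold enrichment in the 5′ UTR, 343 bp downstream (chr16:21205038-21205362).

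The Robos, receptors of the Slits, had no TSS summit in any of 4 genes, and the Unc5 netrin receptors had one in 3 of 4. The intervals, 0% to 49.0% and 30.1% to 95.4%, overlap, and the share over all genes was 16.4%. Median GC content within 1 kb of the outermost TSS was 52.6% for the Robos and 60.8% for the Unc5 genes. The part of GC content in these counts was not tested. Unc5a had 19 reads and 3.68-fold enrichment, 247 bp upstream of the TSS (chr13:55050383-55050689). Unc5b, an Unc5 gene also known from blood vessels, had 23 reads and 4.65-fold enrichment in the 5′ UTR, 262 bp downstream (chr10:60293863-60294242). Unc5d had 16 reads and 4.06-fold enrichment, 198 bp upstream (chr8:30329917-30330174). Unc5a and Unc5d were thus farther upstream of their TSS than any other summit among the 20 genes.

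**Figure D1:**
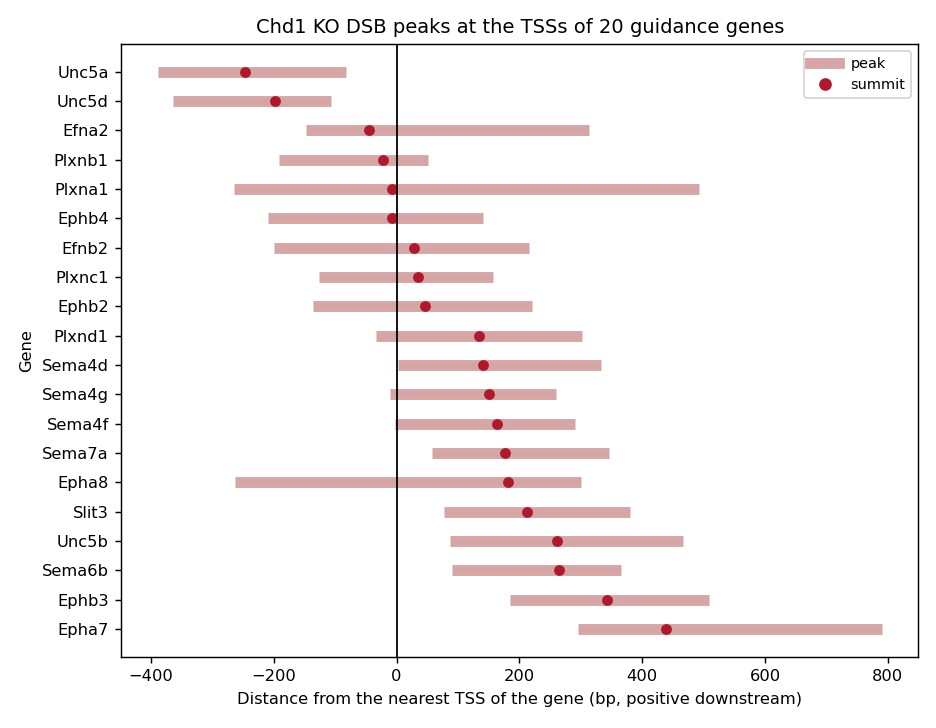
Position of the 20 Chd1 KO DSB peaks at TSSs of guidance genes, with each peak drawn as a bar and its summit as a point, against the distance in bp from the nearest TSS of the gene (negative values are upstream). The summits ran from 247 bp upstream (Unc5a) to 439 bp downstream (Epha7), and 14 of 20 lay downstream.

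The summits had a median position 137.5 bp downstream of the nearest TSS, and 14 of 20 (70.0%, interval 48.1% to 85.5%) lay downstream. Over all 3783 pairs of a gene and a TSS summit the median position was 67 bp and the share 62.8%, which lies inside that interval. Among the 20 summits 11 were more than 100 bp downstream and 7 were within 50 bp of the TSS. By annotation 8 lay in a 5′ UTR, 4 in a coding exon, 3 in an intron and 5 upstream of the gene. None lay within 1 kb of the TSS of another gene, and the closest such TSS was 1056 bp away, near Efnb2.

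In strength the peaks of the guidance genes lay in the middle of the Chd1 KO list. The median fold enrichment was 4.47, against 4.53 for all 3512 peaks with a TSS summit, and 10 of the 20 were below that value. The median number of reads was 22 against 21, the median width 328 bp against 318 bp, and the median GC content of the peak 76.2% against 76.7%. The exact Poisson interval for the 39 reads at Plxna1 was 27.7 to 53.3 and that for the 16 reads at Epha7 and Unc5d was 9.15 to 26.0. The interval for the 18 reads at Plxnc1, 10.7 to 28.4, overlapped that of Plxna1. These intervals leave out the local background, and no difference between peaks was tested.

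**Figure D2:**
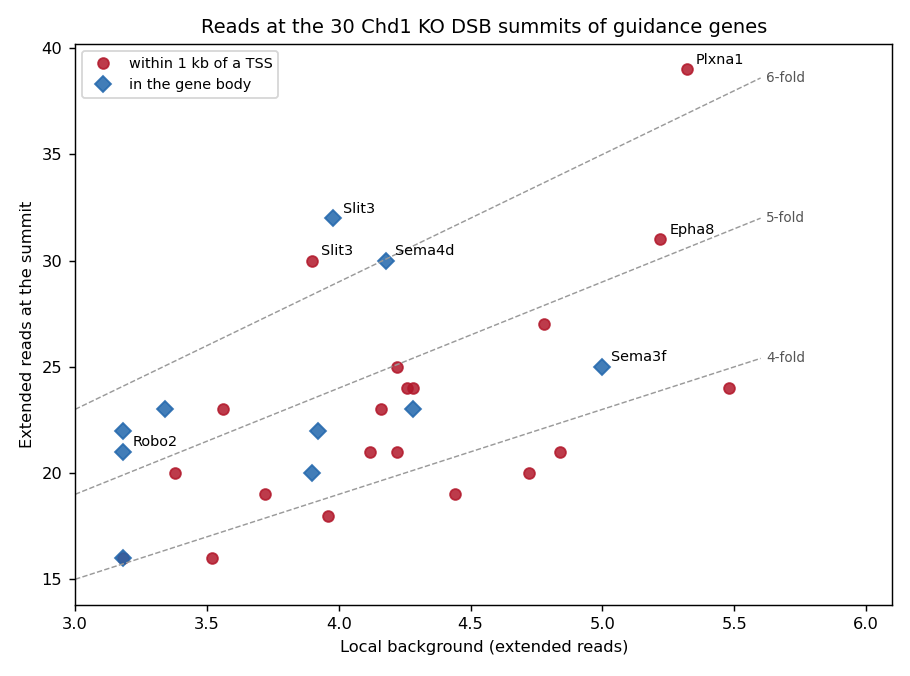
Extended reads at the summit (y axis) against local background reads (x axis) for the guidance-gene peaks in Chd1 KO, with red circles for the 20 TSS peaks, blue diamonds for the 10 gene body peaks and dashed lines of equal fold enrichment. Plxna1 has the most reads, 39 over a background of 5.32, and 1 Epha4 body peak and the Unc5d TSS peak share the point at 16 reads and 3.18.

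Promoters of the guidance genes were GC-rich. GC content within 1 kb of the outermost TSS had a median of 58.7% over the 61 genes, against 51.3% over all genes, and 56 of the 61 lay above the latter value. Among the 61, the median was 62.5% (quartiles 60.5% and 65.1%) for the 20 genes with a TSS summit and 56.7% (53.5% and 59.0%) for the 41 without, a difference of 5.87 percentage points. Both sets overlapped. The genes with a summit ran from 52.1% (Sema4f) to 71.3% (Plxnc1), and those without from 41.7% (Sema3a) to 66.6% (Efna5).

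**Figure D3:**
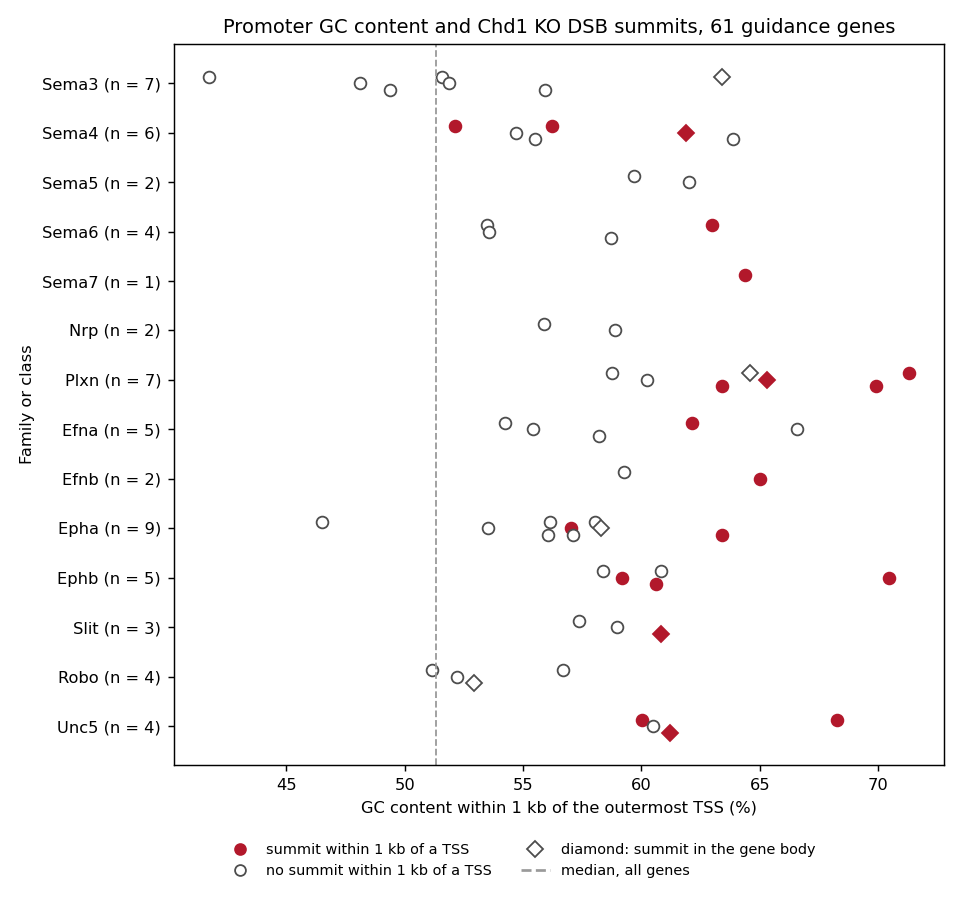
GC content within 1 kb of the outermost TSS (x axis, percent) of each of the 61 guidance genes by family or class (rows). Red symbols have a Chd1 KO summit within 1 kb of a TSS, diamonds have a summit in the gene body, and the dashed line is the median of all 21281 genes, 51.3%; the red symbols lie from 52.1% to 71.3%.

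Set beside genes of like GC content, the members' share lay near that of all genes. All 21281 genes were divided into 5 classes of about equal size by promoter GC content. The richest class, from 57.4% to 77.0%, held 36 of the 61 genes, of which 17 had a TSS summit (47.2%, interval 32.0% to 63.0%), against 49.9% of all genes there. In the next class, 53.3% to 57.3%, it was 2 of 15 (13.3%, interval 3.74% to 37.9%) against 19.6%, and from 49.5% to 53.2% it was 1 of 6 (16.7%) against 8.17%. Of the remaining 4 genes, 3 were in the class from 44.4% to 49.4%, where the share of all genes was 3.72%, and 1 was in the lowest, where it was 1.00%, and 0 had a summit. Summing the shares of all genes over the classes of the 61 members gives 21.5 genes, beside 20 observed.

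**Figure D4:**
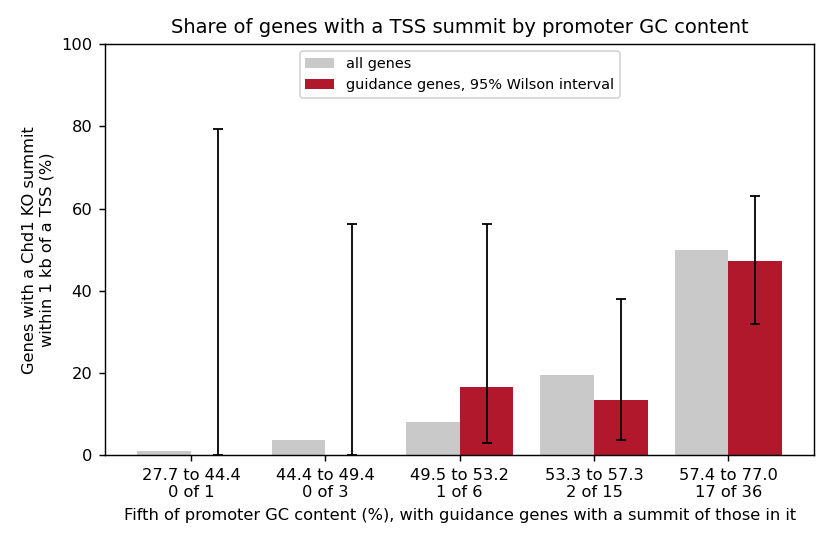
Share of genes with a Chd1 KO summit within 1 kb of a TSS (y axis, percent) in each of 5 classes of promoter GC content (x axis), for the 61 guidance genes (red bars, with Wilson 95% intervals for counting error) and for all autosomal protein-coding genes (gray bars). In the richest class the shares are 47.2% and 49.9%.

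A run of G and C of at least 12 bp lay within 1 kb of the outermost TSS of 20 of 20 genes with a TSS summit and of 34 of 41 without (82.9%), against 54.0% of all genes. The sets differed more in long runs, those of at least 20 bp. They were present for 12 of the 20 genes with a summit and 9 of the 41 without (22.0%), against 16.7% of all genes. Among genes with a long run, 12 of 21 members (57.1%) and 58.0% of all genes had a TSS summit. Among genes without a long run the figures were 8 of 40 members (20.0%, interval 10.5% to 34.8%) and 8.08% of all genes. These counts were not matched for GC content, and its part in them was not tested. Inside the peaks themselves, runs of 12 bp or more were present in 20 of 20 and long ones in 10 of 20, and 16 of 20 summits lay within 100 bp of the centre of the longest run. Because the run was searched only inside the peak, of median width 328 bp, much of this closeness is set by the width. Runs inside peaks were not counted over the TSS peaks of all genes. These counts therefore cannot be called particular to the guidance genes. The letters GGGCGG, searched on both strands, occurred within 1 kb of the outermost TSS of 20 of 20 genes with a summit and 39 of 41 without, against 66.5% of all genes. The number of occurrences had a median of 6.5 (quartiles 4.75 and 9.25) with a summit and 3 (quartiles 2 and 5) without.

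Fold enrichment was set against base composition among the 20 TSS peaks. Pearson's r with the GC content of the peak was 0.306 and with the longest run in the peak 0.434, and Spearman's rho was 0.226 and 0.208. With the GC content of the promoter both were below 0, at -0.0760 and -0.171 (n = 20 peaks, which come from 1 combined library and are not replicates). The r value for run length includes the 42-bp run at Plxna1.

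Guidance genes without a TSS summit included several GC-rich promoters. The 5 with the highest GC content were Efna5 (66.6%), Plxna4 (64.6%), Sema4c (63.9%), Sema3f (63.4%) and Sema5b (62.0%). Their longest runs were 20, 35, 16, 31 and 13 bp in the same order. The nearest Chd1 KO summit to a TSS was 301 kb away for Efna5, 259 kb for Plxna4, 44.8 kb for Sema4c and 50.6 kb for Sema5b. For Sema3f it lay 1046 bp downstream, just outside the 1 kb that defines a TSS summit here, while the farthest summits inside were those of Epha7 at 439 bp and Ephb3 at 343 bp. Nrp1, encoding a class 3 co-receptor, came next outside, with 26 reads and 5.13-fold enrichment 1986 bp upstream of its TSS. The other genes without a TSS summit were Efna1, Efna3, Efna4, Efnb3, Epha1, Epha2, Epha3, Epha4, Epha5, Epha6, Epha10, Ephb1, Ephb6, Nrp2, Plxna2, Plxnb2, Robo1, Robo2, Robo3, Robo4, Sema3a, Sema3b, Sema3c, Sema3d, Sema3e, Sema3g, Sema4a, Sema4b, Sema5a, Sema6a, Sema6c, Sema6d, Slit1, Slit2 and Unc5c.

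Guidance genes with a TSS summit were shorter than those without. The median distance from the first to the last base was 42.0 kb for the 20 genes and 133 kb for the 41, and the median of the average transcript length per gene was 28.6 kb and 108 kb, a log2 ratio of -1.92. Over all genes the order was the other way, with a median distance of 40.8 kb for genes with a TSS summit and 15.6 kb for all of them. By length class, 9 of 25 members under 30 kb had a TSS summit (36.0%, interval 20.2% to 55.5%) against 9.95% of all genes, and 6 of 8 from 30 to 100 kb (75.0%) against 27.8%. At 100 kb or more it was 5 of 28 (17.9%, interval 7.88% to 35.6%) against 32.9%. The 5 long genes were Ephb2, Epha7, Plxnc1, Slit3 and Unc5d. The part of GC content in these counts by length was not tested.

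Summits in gene bodies were present in 8 of the 61 genes in Chd1 KO (13.1%, interval 6.80% to 23.8%), against 4.55% of all genes. In control it was 0 of 61 (interval 0% to 5.92%), against 0.0329% of all genes. Many guidance genes are long, and among genes of 100 kb or more the counts were 4 of 28 members (14.3%, interval 5.70% to 31.5%) and 17.7% of all genes. Per length, the members had 10 body summits over 10.0 Mb, or 1.00 per Mb (exact Poisson interval 0.479 to 1.84), and all genes had 1.14 per Mb. In genes of 100 kb or more it was 0.547 per Mb for the members (5 summits, interval 0.178 to 1.28) and 0.931 per Mb for all genes. All 10 lay in introns, and the nearest TSS of any other gene was 4807 bp away.

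Sequence is also given for the 3 body peaks of highest fold enrichment, which lie in Slit3, Sema4d and Epha4. They were chosen after their values were seen, and the capitals again mark the run on the gene strand.
Slit3 (chr11:35455151-35455270, plus strand): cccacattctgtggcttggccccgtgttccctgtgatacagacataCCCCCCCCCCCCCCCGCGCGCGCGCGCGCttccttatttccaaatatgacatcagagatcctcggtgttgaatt
Sema4d (chr13:51801120-51801239, minus strand): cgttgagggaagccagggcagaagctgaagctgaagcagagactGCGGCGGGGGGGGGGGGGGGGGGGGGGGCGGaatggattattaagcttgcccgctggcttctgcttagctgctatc
Epha4 (chr1:77430932-77431051, minus strand): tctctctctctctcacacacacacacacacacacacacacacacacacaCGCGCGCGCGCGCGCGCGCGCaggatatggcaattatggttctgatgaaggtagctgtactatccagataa
In Slit3 the run began with 15 C followed by alternating C and G, and in Sema4d it held 23 G in a row. In Epha4 it was a perfect alternation of C and G over 21 bp that followed a CA repeat.

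The Slit3 body peak had 32 reads and 6.63-fold enrichment, the highest of all 30 guidance-gene peaks, and lay 520.4 kb from the outermost TSS (chr11:35455002-35455435). Sema4d had body summits 87.9 kb and 36.1 kb from its outermost TSS, with 30 reads and 5.98-fold enrichment (chr13:51801052-51801319) and with 22 reads and 4.67-fold enrichment (chr13:51852827-51853057). Epha4, whose product binds A and B ephrins, had summits at 80.7 kb with 23 reads and 5.53-fold enrichment (chr1:77430811-77431170) and at 140.9 kb with 16 reads and 4.06-fold enrichment (chr1:77370673-77370886). These 3 genes thus held 5 of the 10 body summits. Plxna4 had 22 reads and 5.50-fold enrichment at 259.2 kb (chr6:32278837-32279075). Robo2, a Slit receptor, had 21 reads and 5.26-fold enrichment at 339.1 kb (chr16:74072785-74073012). Plxnd1 had 23 reads and 4.55-fold enrichment at 13.6 kb (chr6:115931266-115931573). Of the body peaks, only that of Slit3 exceeded the highest fold enrichment at a TSS. Sema3f had 25 reads and 4.33-fold enrichment (chr9:107611663-107611867), and Unc5b had 20 reads and 4.29-fold enrichment at 45.1 kb (chr10:60249144-60249380).

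The body peaks differed from the TSS peaks in base composition around the run. Their median GC content was 54.4%, against 76.2% at the TSSs, and only the Sema3f peak, at 73.2%, lay in the range of the TSS peaks. A run of at least 12 bp was still present in 9 of 10 and a long one in 7 of 10, and 10 of 10 summits lay within 100 bp of the centre of the longest run. The run was searched only inside the peak, of median width 238 bp, so much of this closeness is set by the width. A CA repeat of at least 20 bp was present in 3 of 10 body peaks (Epha4 at 80.7 kb, Robo2, and Sema4d at 36.1 kb). It was present in 0 of 20 TSS peaks (interval 0% to 16.1%). The Sema4d peak at 36.1 kb, with a CA repeat of 28 bp, was the only body peak whose longest run, 11 bp, fell short of 12 bp. GC content, runs and CA repeats were not counted over the body peaks of all genes. These traits therefore cannot be called particular to the guidance genes.

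**Figure D5:**
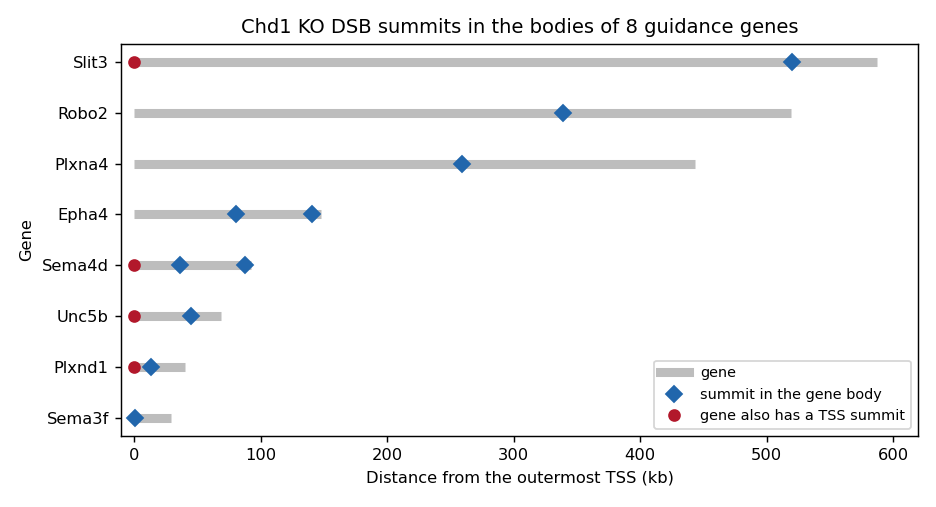
Positions of the 10 Chd1 KO body summits (blue diamonds) along the 8 guidance genes that hold one (gray bars, y axis), in kb from the outermost TSS (x axis), with a red circle at the start of the 4 genes that also have a TSS summit. They range from 1.046 kb in Sema3f to 520.4 kb in Slit3.

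Other guidance genes were counted in the same way from a list of netrins, netrin receptors and co-ligands and of proteins acting downstream of guidance receptors. Of the 60 found, 29 had a TSS summit in Chd1 KO (48.3%, interval 36.2% to 60.7%) and 0 in control, against 16.4% of all genes, and their median promoter GC content was 58.5%. In the richest GC class it was 22 of 33 (66.7%) against 49.9%, and in the next class 5 of 16 against 19.6%. Summing the shares of all genes over the classes of these 60 genes gives 20.2 genes, beside 29 observed, and this difference was not tested. The netrin group gave 7 of 16 (43.8%), namely Ntn1, Ntn4, Ntng2, Neo1, Dscam, Rgma and Rgmb. Neo1, which encodes neogenin, a netrin and RGM receptor, had the most enriched peak of this group, with 29 reads and 5.64-fold enrichment. The downstream group gave 22 of 44 (50.0%), including Farp1, Farp2, Srgap1, Trio, Kalrn, Ngef, Vav2, Vav3 and Chn1. Its kinases were Fyn, Pak1, Pak2, Limk1, Rock1 and Rock2, and its adaptors and actin regulators were Nck2, Enah, Evl, Ablim1, Ablim3 and Micall1, beside Rhoa. Rhoa had 33 reads and 6.09-fold enrichment, and Enah had 34 reads and 5.38-fold enrichment, both inside the range of the ligand and receptor genes.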

How the data were processed

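Mouse ES cells were assayed by DSB-seq with 2 replicates per genotype. The authors aligned the reads (Bowtie2, mm9), filtered them on mapping quality and to 1 read per position, and pooled both replicates. Peaks were then called in MACS2 (reads extended to 200 bp, q-value cutoff 0.05), and those in blacklisted regions were dropped. Each deposited list gives, per peak, the authors' fold enrichment (a ratio to local background), a −log10 p-value, a −log10 q-value and an integer score. The score was not used for any result. The other assays were not analysed here.

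For each summit, whole reads and background were solved from the deposited fold enrichment (reads plus 1 over background plus 1) and Poisson p-value. The solutions missed the deposited −log10 p-values by at most 7.25e-05 for Chd1 KO and 0.000135 for control. Summits were assigned to GENCODE M1 genes if within 1 kb of any TSS of a protein-coding transcript, or otherwise between the first and last base of the gene. Of models sharing a symbol the longest was kept. GC content and runs were read from mm9 within 1 kb of the outermost TSS. Shares carry Wilson 95% intervals. The count of 0 genes with a control TSS summit is given with an upper limit of 3 counts. Other counts of 0 carry a Wilson interval or no limit. Placement of summits and recovery of reads were tested on simulated data. Python 3.11.15, NumPy 2.4.6, SciPy 1.17.1, pandas 2.3.3, pysam 0.24.0, samtools 1.23.1 and Matplotlib 3.10.9 were used.

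Every gene with a summit is named with values, as are the 5 genes of highest promoter GC content without a TSS summit. Sequences were selected for the 5 TSS peaks of highest fold enrichment and, after their values were seen, for the body peaks of highest fold enrichment. Some of the selected sequences are not reported here. The genes and lists were chosen with earlier results of these data known. Alternatives changed the window, the TSSs used, the peak position, the thresholds and the definitions of GC content and gene length.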

Additional observations from a re-analysis of the deposited data

How the results depend on the processing

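The count of guidance genes with a TSS summit, 20, ran from 8 to 22 over 10 alternatives. When downstream summits counted only up to 100 bp from the TSS (1 kb upstream as before) it was 9 of 61 (14.8%), against 2097 of all genes (9.85%), because 11 summits lie more than 100 bp downstream, and the log2 ratio of gene lengths was -1.05. Restricted to genes with 1 TSS it was 8 of 23 (34.8%), against 1269 of 11302 genes (11.2%). A 2-kb window gave 22 genes, adding Nrp1 and Sema3f. The other results stayed within 1.5 times their main value, or for the share of summits downstream within its Wilson interval. Genes with a body summit numbered 7 to 8, and the difference in promoter GC content was 4.17 to 7.84 percentage points. Between 61.9% and 80.0% of summits lay downstream, and there were 0 control summits under each alternative run. No paired analysis was possible because the replicates of each genotype were combined before peaks were called, and for the same reason no replicate could be left out. Sites with fewer than 13 extended reads in Chd1 KO or 17 in control are not in the lists, so a missing summit is not evidence that breaks were absent.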
